A study of Mus musculus with 10 samples.

Results

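Expression was compared between LSK cells of 3 Ezh2-deleted mice with an overlap of myelodysplastic syndrome and myeloproliferative neoplasm (MDS/MPN) and LSK cells of wild type. LSK cells are lineage-negative bone marrow cells that carry c-Kit and Sca-1, a gate that holds the blood stem cells and the earliest progenitors. The arrays were chosen by their labels: the 3 single-mouse arrays whose source name gives MDS/MPN, and the 1 array titled as wild type at 9-12 months after transplantation (WT) on the same slide, so 4 of the 10 arrays of the series. All mice were C57BL/6, and the cells were sorted for CD45.2 at 9-12 months after transplantation, with tamoxifen given to both genotypes per the design text. WT cells carried Cre-Ert, the tamoxifen-inducible Cre, without floxed Ezh2. The MDS/MPN cells carried Cre-Ert with Ezh2 fl/fl. Replicate 1 has the disease label MDS/MPN_TC, whose last part the labels do not explain, replicate 2 has MDS/MPN, and replicate 3 has MDS/MPN with CMMoL in its source name. Which promoter drives the Cre and how many mice the WT array stands for are not stated in the labels. The 2 arrays of Ezh2-deleted mice with MDS, also at 9-12 months and on the same slide, stand beside them as the other replicated disease group. The WT array of the other slide, labelled 3 months, serves as a second control. A single array of the same slide, from an Ezh2-deleted mouse with no disease determined (the undetermined array), is given at some genes.

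Ezh2 is the methyltransferase of Polycomb repressive complex 2 (PRC2), which places trimethylation on lysine 27 of histone H3 and holds developmental genes silent. In stem cells this complex restrains lineage genes until a cell commits to a fate. MDS shows as failing, dysplastic blood formation, while a myeloproliferative neoplasm overproduces mature myeloid cells, and the overlap disease has features of both.

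Each value below is a level, the log2 of a probe's processed signal over the 75th percentile of its own array, so that 0 is the 75th percentile and 1 unit is a 2-fold difference. Probes that the scanner software called well above background are written as above background. Replicate 2 stood apart from the other MDS/MPN arrays. Its 75th percentile was 302 signal units, against 89.4 and 96.8 for replicates 1 and 3 and 120 for WT, and 47.5% of its probes were above background, against 32.5%, 37.3% and 38.7%. Of the 14630 features above background on WT, MDS and MDS/MPN arrays alike, 1.95% lay at least 2-fold apart between replicates 1 and 3, but 40.0% between replicates 1 and 2 and 41.2% between replicates 2 and 3. From WT, replicates 1, 2 and 3 lay at least 2-fold apart at 12.7%, 24.4% and 13.3% of these features, and the 2 MDS arrays at 4.55% and 4.44%. The undetermined array lay that far from replicates 1, 2 and 3 at 8.90%, 50.2% and 7.10%. MDS replicate 1 did so at 11.1%, 19.9% and 11.1%, and MDS replicate 2 at 18.8%, 19.1% and 19.6%. The WT array of the other slide lay 2-fold or more from the WT array of the MDS/MPN slide at 12.2%. By the position codes of the arrays, WT and MDS lay on the first line of the slide. The 3 MDS/MPN arrays and the undetermined array lay on the second, so slide line and disease cannot be told apart. In the deposited value table the columns of the 2 WT arrays hold each other's scanner values, so which of them is the 9-12 month control is uncertain, and results that hold against both are named as such.

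Of 19313 features that entered the comparison, 361 were at least 2-fold higher on all 3 MDS/MPN arrays than on WT (1.87%) and 788 were at least 2-fold lower (4.08%). Among the 14696 features above background on all 4 arrays the shares were smaller and nearly even, with 149 higher (1.01%) and 124 lower (0.844%). Of the 361 higher features, 79 were above background on neither WT nor 1 of the MDS/MPN arrays. A feature not above background on WT entered only through at least 2 MDS/MPN arrays. For such features the MDS/MPN signal was itself the way in, so shares of higher genes below are not independent of the entry rule. Against both WT arrays, 209 features were at least 2-fold higher (1.08%) and 205 lower (1.06%). In limma, with the WT array assumed to vary as the Ezh2-deleted arrays do, no feature passed an adjusted p of 0.05 in either direction (0% called), and 409 higher (2.12%) and 883 lower (4.57%) had an unadjusted p below 0.05. Without replicate 2, limma called 430 features higher and 741 lower. An exact permutation test of 3 arrays against 1 cannot give a one-sided p below 0.25. The gene-level statements below therefore rest on the agreement of the 3 arrays, and each adjusted p is from limma with Benjamini-Hochberg adjustment over all 19313 features.

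The targeted gene was examined first. The Ezh2 probe read 2.63 on WT and 2.28, 3.35 and 2.24 on MDS/MPN replicates 1, 2 and 3, so the groups overlapped. Where this probe lies relative to the deleted exons is unknown, so the reading checks nothing about the deletion. None of the 11 PRC2 genes was at least 2-fold from WT on all 3 arrays (0%, against 1.87% higher and 4.08% lower of all features). Phf19, a Polycomb-like protein that guides the complex to chromatin, read 0.67 on WT and 1.65, 1.43 and 1.44 in MDS/MPN, a mean difference of 0.83 ± 0.41 (SE; adjusted p = 0.92). Ezh1, the other methyltransferase of the complex, read 3.81 on WT and 3.43, 3.54 and 3.35 in MDS/MPN.

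Markers of the sort gate were present on every array. Ly6a, which encodes Sca-1, read 4.55 on WT and 4.56, 4.85 and 5.20 in MDS/MPN. Kit read 5.06 on WT and 3.90, 4.11 and 3.86, and Cd34 read 8.56 on WT and 7.37, 7.15 and 7.57, lower on all 3 MDS/MPN arrays by 1.92- to 2.28-fold for Kit and 1.98- to 2.65-fold for Cd34. Of the mature markers that the gate removes, Cd8a was not above background on any of the 4 arrays, and Itgam read between 4.97 and 5.38 on all 4. Of 19 stromal and endothelial markers, 10 were above background on WT and 8, 11 and 8 on MDS/MPN replicates 1, 2 and 3. Cdh5 and Col1a1 were above it on none of the 4, while Lepr, the leptin receptor of marrow stroma, read 4.59 on WT and 4.69, 2.05 and 4.68 in MDS/MPN. Their summed signal was 126 times the 75th percentile on WT and 169, 82.2 and 172 in MDS/MPN, and their part in the results was not tested. In bulk cells such as these, more cells of a type and more RNA per cell cannot be told apart.

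Antigen presentation genes of MHC class II were among the clearest differences. MHC class II molecules are pairs of an alpha and a beta chain that show peptides to helper T cells, and the invariant chain Cd74 guards their groove during assembly. Promoters of this family share a Y box, bound by the factor NF-Y. The promoters of an alpha and a beta chain that were higher on all 3 arrays are shown here because both hold that box, written in capitals, as TGATTGG. They run from 250 bases before to 50 bases after the gene's start (RefSeq, GRCm38.p6), H2-Aa at chr17:34287774-34288073 on the minus strand and H2-Eb1 at chr17:34305617-34305916 on the plus strand, each 5′ to 3′ on the gene's strand.
H2-Aa: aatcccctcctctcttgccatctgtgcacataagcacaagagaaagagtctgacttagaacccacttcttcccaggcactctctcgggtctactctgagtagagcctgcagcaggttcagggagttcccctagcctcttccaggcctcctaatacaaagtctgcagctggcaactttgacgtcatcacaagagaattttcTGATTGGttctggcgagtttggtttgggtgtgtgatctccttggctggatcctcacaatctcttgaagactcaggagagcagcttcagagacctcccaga
H2-Eb1: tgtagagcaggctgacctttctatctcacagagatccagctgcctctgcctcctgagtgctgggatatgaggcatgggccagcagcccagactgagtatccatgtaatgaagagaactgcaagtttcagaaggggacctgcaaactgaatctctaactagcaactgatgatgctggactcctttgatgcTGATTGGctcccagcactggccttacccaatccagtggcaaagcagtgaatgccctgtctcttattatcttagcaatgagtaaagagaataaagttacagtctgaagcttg
Searched on both strands, TGATTGG occurred in 7.82% of 32851 promoters of that length in the same table, and in 7 of the 8 MHC class II genes of the list that the table holds. A match is a description of the sequence and not of binding. The box was also present at H2-Oa and H2-Ob, which were not at least 2-fold higher on all 3 arrays, and absent from the window of H2-DMa.

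H2-Aa, H2-Ab1, H2-Eb1 and Cd74 were at least 2-fold higher on all 3 MDS/MPN arrays, and all 4 were so against both WT arrays. H2-Aa, the alpha chain of I-A, read 1.53 on WT and 5.29, 3.48 and 5.19 in MDS/MPN replicates 1, 2 and 3, a mean difference of 3.12 ± 0.81 (SE; adjusted p = 0.37). H2-Ab1, its beta chain, read 6.23 on WT and 9.01, 7.62 and 9.30 in MDS/MPN. H2-Eb1, the beta chain of I-E, read 4.62 on WT and 8.33, 6.95 and 8.73, and Cd74 read 1.91 and 5.96, 5.61 and 6.46. For each of these genes no MDS/MPN array overlapped WT, replicate 2 was the lowest of the 3, and the folds ran from 2.61 for H2-Ab1 on replicate 2 to 23.4 for Cd74 on replicate 3. Without replicate 2, limma called all 4, with H2-Eb1 at an adjusted p of 0.010. The MDS arrays lay between, with H2-Aa at 3.32 and 2.58 and Cd74 at 4.74 and 3.77, while the WT array of the other slide read 1.70 for H2-Aa and 2.64 for Cd74.

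**Figure D1:**
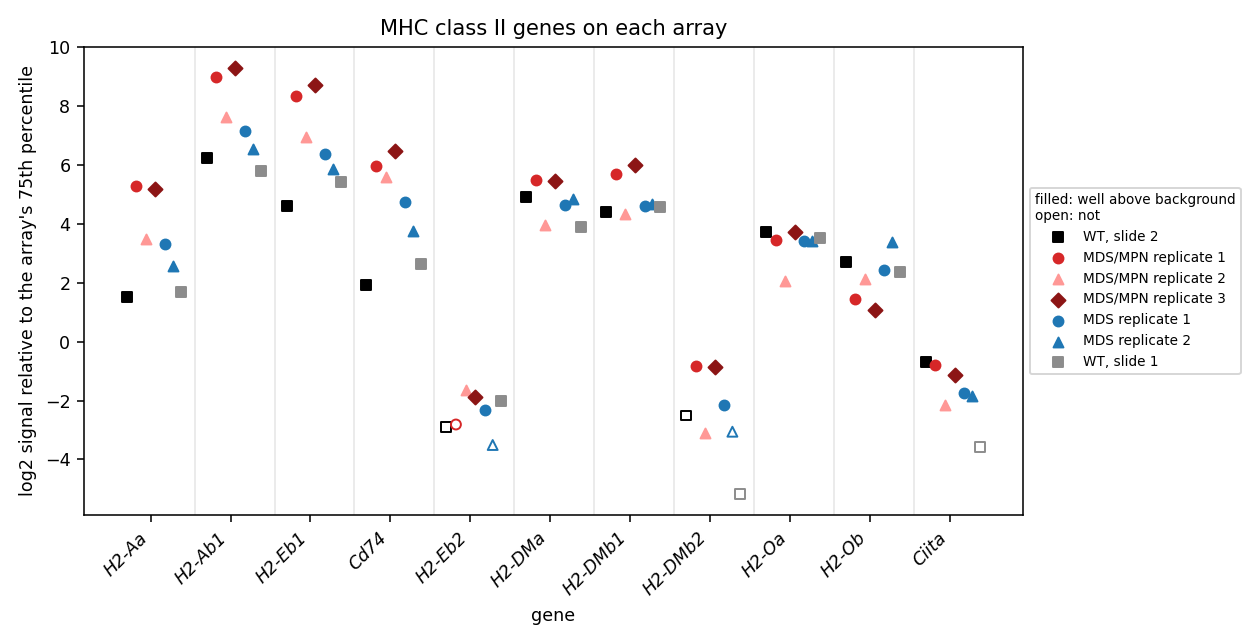
Levels of 11 MHC class II genes on 7 arrays (log2 signal relative to the array's 75th percentile, y axis; 1 marker per array, filled where the probe was well above background). For H2-Aa, H2-Ab1, H2-Eb1 and Cd74 all 3 MDS/MPN markers lie above both WT markers. For none of the genes to the right do all 3 lie at least 2-fold above the WT marker of the same slide.

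The rest of the class II genes were not at least 2-fold higher on all 3 arrays, though 5 of the 11 were higher on all 3 by any amount. On replicates 1 and 3 together, 6 of the 11 were at least 2-fold higher (54.5%, against 6.61% of all features), and 2 of these lay within 2-fold of WT on replicate 2. H2-DMa and H2-DMb1, which load peptides, read 4.92 and 4.42 on WT, and their MDS/MPN values of 3.98 to 5.49 and 4.33 to 6.00 overlapped WT. H2-Oa and H2-Ob modulate that loading. H2-Ob was lower on all 3, with 2.70 on WT and 1.46, 2.13 and 1.09 in MDS/MPN, while H2-Oa was not lower on all 3. Ciita, the transactivator of class II genes, read -0.71 on WT and -0.80, -2.14 and -1.14 in MDS/MPN, so it was not higher on any of the 3. In all, 4 of the 11 members were at least 2-fold higher on all 3 arrays (36.4%, against 1.87% of all features) and none was lower, and the median difference of the 11 was 1.26, -0.10 and 1.58 on replicates 1, 2 and 3, against 0.08, -0.33 and 0.10 over all features.

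Neutrophil granule genes also stood higher. Neutrophils fill their granules in waves, with Mpo and elastase in the primary granules of promyelocytes, and lactoferrin, lipocalin and cathelicidin in the granules made later. Of the 22 late granule genes on the array, 16 entered the comparison, 7 were at least 2-fold higher on all 3 MDS/MPN arrays (43.8%, against 1.87% of all features) and none was lower. Lcn2, which encodes lipocalin-2 and binds bacterial siderophores, read -1.49 on WT and 2.59, 3.47 and 4.68 in MDS/MPN, a mean difference of 5.06 ± 0.82 (SE; adjusted p = 0.21). That was 16.9- to 71.6-fold, with no overlap between MDS/MPN and WT. Chil3, a chitinase-like protein of myeloid cells, read -1.21 on WT and 2.15, 2.41 and 3.72 in MDS/MPN. Hp, which encodes haptoglobin, read 3.43 on WT and 6.23, 4.73 and 7.63. These 3 genes were at least 2-fold higher than both WT arrays. The MDS arrays read 2.72 and 2.08 for Lcn2 and 3.18 and 1.24 for Chil3, so MDS and MDS/MPN overlapped at these genes.

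S100a8, Camp, Retnlg and Wfdc21 were the remaining 4, and the WT array of the other slide lay within the MDS/MPN range for each. S100a8, a calcium-binding alarmin, read 1.06 on WT and 2.68, 5.86 and 6.49 in MDS/MPN, but 4.24 on the WT array of the other slide. Camp, which encodes cathelicidin, read -0.64 on WT and 0.73, 3.57 and 4.95, and 2.87 on the WT array of the other slide. The MDS arrays read 5.73 and 2.96 for S100a8 and 1.97 and 1.54 for Camp, within the MDS/MPN range. Ltf, which encodes lactoferrin, was above background on replicates 2 and 3 alone, at 1.51 and 1.13. The genes of mature neutrophils Mmp9 and Cd177 were not above background on any of the 4 arrays. The median difference of the late granule genes that entered was 1.09, 2.54 and 4.11 on replicates 1, 2 and 3, so replicate 3, the one marked CMMoL, lay highest.

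The primary granule genes differed between the arrays in another way. Ms4a3, a membrane protein of granulocyte and monocyte progenitors, read 3.90 on WT and 7.31, 4.93 and 8.05 in MDS/MPN, and Igsf6 read 0.04 and 2.33, 3.12 and 3.35. These were the 2 of 15 members at least 2-fold higher on all 3 (13.3%, against 1.87% of all features). Elane, the neutrophil elastase gene, read 4.76 on WT and 6.49, 5.64 and 7.28, and Ctsg, the cathepsin G gene, read 8.32 and 10.29, 8.50 and 10.80. Both were higher on all 3, but by less than 2-fold on replicate 2. On replicates 1 and 3 together, 9 of the 15 were at least 2-fold higher (60.0%, against 6.61% of all features). Cebpe, the transcription factor required for the late granules, read 0.68 on WT and 3.84, 3.65 and 5.27 in MDS/MPN, 7.81- to 23.9-fold higher, and also exceeded both WT arrays. The MDS arrays read 5.68 and 4.39 for Ms4a3, which overlapped MDS/MPN. They read 1.81 and 0.48 for Igsf6 and 3.13 and 1.63 for Cebpe, below all 3 MDS/MPN arrays. The undetermined array read 2.88 for Igsf6 and 4.41 for Cebpe, within the MDS/MPN range.

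Genes of mast cells and basophils formed a further group. Of 26 members on the array 18 entered, 6 were at least 2-fold higher on all 3 arrays and 1 was lower (33.3% and 5.56%, against 1.87% and 4.08% of all features), and the 6 were also higher than both WT arrays. Members not above background on WT had entered only through their MDS/MPN signal. Of the 13 members above background on all 4 arrays, 1 was at least 2-fold higher and 1 lower. Il1rl1, the receptor of interleukin-33, was not above background on WT and read 3.11, -0.27 and 2.30 in MDS/MPN, at least 16.7-fold higher in the mean. In such bounds the dim side stands at the lowest signal above background of each of its arrays, or at the probe's own signal where that was higher. Another Il1rl1 probe, above background on at least 1 of the 4 arrays, was not higher on all 3 MDS/MPN arrays. Gzmb, the granzyme B gene, read 2.46, 0.94 and 0.90 in MDS/MPN, at least 13.4-fold higher. Cma1, a mast cell chymase, read 1.86, 0.35 and 0.44, at least 9.38-fold higher. Prss34, a basophil and mast cell protease, was above background on WT at -0.63 and read 3.30, 0.61 and 1.04 in MDS/MPN. Slc18a2, a vesicle monoamine transporter, was the lower member, with 2.11 on WT and 0.96, 0.69 and 0.56 in MDS/MPN. MDS replicate 1 read 3.35 for Il1rl1, 2.81 for Gzmb and 3.05 for Cma1, higher than any MDS/MPN array, so MDS and MDS/MPN overlapped at these genes.

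Some dendritic cell and B cell genes were higher too. Of the 14 dendritic cell genes that entered, of 19 on the array, 5 were at least 2-fold higher on all 3 arrays (35.7%, against 1.87% of all features), and 1 of the 5 was above background on all 4 arrays. The median difference of the 14 was 0.34, 0.52 and 0.63 on replicates 1, 2 and 3, and the summed signal of the 19 was 371 times the 75th percentile on WT and 363, 456 and 368 in MDS/MPN, so replicates 1 and 3 lay at the WT level. Ly6d, a surface marker of early lymphoid and plasmacytoid cells, read -0.61 on WT and 3.67, 2.42 and 3.30 in MDS/MPN, 8.14- to 19.4-fold higher. Spib, a transcription factor of plasmacytoid dendritic and B cells, read 1.15, -0.41 and 0.08 in MDS/MPN and was at least 6.15-fold higher. Cd83, a maturation marker of dendritic cells, was at least 9.32-fold higher than this WT array, but the other WT array read 0.21, within its MDS/MPN range of 0.18 to 1.58. Batf3, required for cross-presenting dendritic cells, read -0.68, -1.80 and -0.60 in MDS/MPN and was at least 2.50-fold higher in the mean. Its replicate 2 lay less than 2-fold above the lowest signal above background on WT, -2.35. MDS replicate 1 read 2.67 for Ly6d, 0.87 for Spib, 0.21 for Cd83 and -0.62 for Batf3, each within the MDS/MPN range. MDS replicate 2 read 1.69, -1.17, -1.07 and -2.25, below that range. Of the 12 B cell markers that entered, of 20 on the array, 5 were at least 2-fold higher on all 3 arrays (41.7%, against 1.87% of all features), against both WT arrays as well. None of the 5 was above background on WT, so each had entered only through its MDS/MPN signal. Of the markers above background on all 4 arrays, none was at least 2-fold higher on all 3. The 5 included Spib, Ms4a1, Fcmr and Pou2af1, the last also not above background on replicate 3. The summed signal of the 20 markers was 29.1 times the 75th percentile on WT and 58.6, 119 and 45.8 on MDS/MPN replicates 1, 2 and 3. It was 37.8 and 30.5 on the MDS arrays and 23.1 on the other WT array. Pax5, the identity factor of B cells, was not above background on any of the 4 arrays, and Ebf1 was above it on replicate 2 alone. Of the 14 T cell markers that entered, of 23 on the array, 2 (Cd6 and Tcf7) were at least 2-fold higher by measured values on all 3 (14.3%, against 1.87% of all features). Tcf7 was not above background on WT or on replicate 1. Another Cd6 probe, above background on at least 1 of the 4 arrays, was not higher on all 3. The summed signal of the 23 was 37.2 on WT and 39.5, 47.3 and 45.3 in MDS/MPN. Of the 9 natural killer cell markers that entered, of 19 on the array, 2 were higher by measured values (Gzmb and Klrd1) and 1 lower (Klrb1c). These were 22.2% and 11.1%, against 1.87% and 4.08% of all features. Klrd1 was not above background on WT or on replicate 1. The sums of the 19 were 125 on WT and 110, 51.0 and 200 in MDS/MPN. The part of such cells in the results was not tested.

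**Figure D2:**
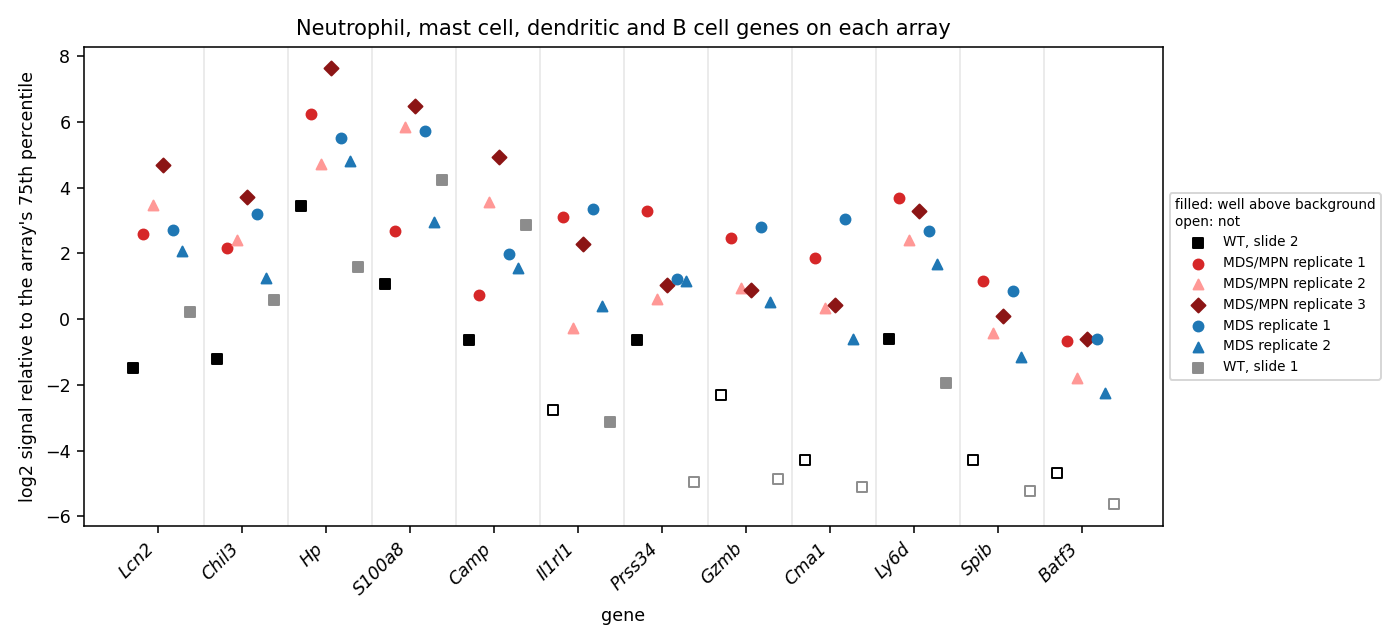
Levels of 12 genes of neutrophils, mast cells, dendritic cells and B cells on 7 arrays (log2 signal relative to the array's 75th percentile; filled markers well above background, open markers not). The 3 MDS/MPN markers lie above the black WT marker for every gene, and for S100a8 and Camp the grey marker of the other WT array lies among them.

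Of the 23 monocyte genes that entered, of 34 on the array, 4 were at least 2-fold higher on all 3 arrays (17.4%, against 1.87% of all features). F13a1, coagulation factor XIII of monocytes and megakaryocytes, read 2.95 on WT and 4.90, 4.56 and 4.78 in MDS/MPN. Vcam1, an adhesion molecule of marrow macrophages and stroma, was not above background on WT and read 1.26, -1.26 and 2.63, at least 9.34-fold higher. Another Vcam1 probe, above background on at least 1 of the 4 arrays, was not higher on all 3. Cd14, the lipopolysaccharide coreceptor, read -0.69, 0.29 and 0.74 and was at least 5.50-fold higher, but the other WT array read -0.89. Csf1r, the receptor that sustains monocytes, read 4.6 on WT and 5.09, 4.21 and 5.54, which overlapped WT.

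Of the 24 growth factor and cytokine receptors that entered, of 28 on the array, 4 were at least 2-fold higher on all 3 arrays (16.7%, against 1.87% of all features), and each of the 4 also exceeded both WT arrays. Csf2rb, the shared beta chain of the receptors for GM-CSF, interleukin-3 and interleukin-5, read 2.55 on WT and 3.97, 3.59 and 4.64 in MDS/MPN. Its close relative Csf2rb2, whose probe may share sequence with it, read 0.93 and 2.49, 2.62 and 3.14. Il18r1, a chain of the interleukin-18 receptor, read -0.82 and 0.61, 2.31 and 0.80, and Il1rl1, by its brightest probe, was the fourth. The alpha chain Csf2ra read 2.93 on WT and 2.74, 4.45 and 3.41, so it did not share the direction on replicate 1. Flt3 read 5.28 on WT and 3.88, 5.61 and 3.45, lower on replicates 1 and 3 but not on replicate 2.

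Genes of other kinds stood as high. Ncam1, a neural and natural killer cell adhesion molecule, was not above background on WT and read 0.72, 0.62 and 1.1 in MDS/MPN, at least 8.96-fold higher, with the lowest adjusted p of the genes named (0.14). Bmpr1a, a receptor of bone morphogenetic proteins, read -0.45, -0.31 and -0.25 and was at least 4.02-fold higher. Prss16, a serine protease known from thymic epithelium, read -1.42 on WT and 2.44, 1.64 and 2.96, 8.32- to 20.8-fold higher. Echdc2 read -0.90 on WT and 2.02, 1.58 and 2.23. All 4 exceeded both WT arrays. Pmaip1, a pro-apoptotic p53 target, was at least 13.9-fold higher than this WT array, but the other WT array read 1.23, within the MDS/MPN range of 0.32 to 3.04.

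The metallothioneins depended on which WT array was used. Mt1 and Mt2 encode small proteins that bind zinc and copper, and their promoters carry metal response elements bound by Mtf1. Both promoters are shown because both genes were higher on all 3 arrays. Capitals mark the element's core, TGCGCNC or TGCACNC, on either strand, and the build is RefSeq GRCm38.p6, with Mt1 at chr8:94178839-94179138 and Mt2 at chr8:94172368-94172667, both on the plus strand.
Mt1: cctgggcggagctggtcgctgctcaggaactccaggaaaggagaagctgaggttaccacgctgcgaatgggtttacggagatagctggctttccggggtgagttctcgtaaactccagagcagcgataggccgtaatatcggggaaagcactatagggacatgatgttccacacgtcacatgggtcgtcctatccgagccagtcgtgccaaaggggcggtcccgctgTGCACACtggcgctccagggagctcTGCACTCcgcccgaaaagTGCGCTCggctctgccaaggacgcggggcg
Mt2: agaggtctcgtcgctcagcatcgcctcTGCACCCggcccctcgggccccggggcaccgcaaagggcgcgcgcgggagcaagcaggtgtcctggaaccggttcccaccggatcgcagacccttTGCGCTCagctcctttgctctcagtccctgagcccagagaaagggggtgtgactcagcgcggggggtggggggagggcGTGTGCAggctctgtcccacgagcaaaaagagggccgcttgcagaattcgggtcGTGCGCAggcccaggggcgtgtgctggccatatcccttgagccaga
Mt1 held 3 cores and Mt2 held 4, and 25.7% of the 32851 promoters held at least 1 of the pair of forms. Mt2 read 0.79 on WT and 7.95, 4.71 and 7.44 in MDS/MPN, 15.2- to 143-fold higher, and Mt1 read 3.98 and 8.33, 6.55 and 8.58. The WT array of the other slide read 6.78 for Mt2 and 6.98 for Mt1, inside the MDS/MPN range, and both MDS arrays read 5.53 and 5.30 for Mt2. Id1, an inhibitor of differentiation induced by bone morphogenetic proteins, showed the same split between the WT arrays. It read -1.01 on WT and 2.14, 2.24 and 2.81 in MDS/MPN, but 6.02 on the other WT array, above all 3.

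A group of long-term stem cell genes was lower. Such genes mark the cells at the top of the blood hierarchy that rebuild marrow after transplantation. Of the 33 on the array 30 entered, and 8 were at least 2-fold lower by their measured values on all 3 MDS/MPN arrays (26.7%, against 4.08% of all features). None was at least 2-fold higher on all 3. All 8 were also at least 2-fold lower than both WT arrays by these values (1.06% of all features). Of the 8, 5 were above background on all 4 arrays. For Clec1a and Hoxb5, at -1.16 and -1.56 on WT, a 2-fold difference was not detectable on replicate 1, where the lowest signal above background was -1.51. By any amount 18 of the 30 were lower on all 3 arrays, and the summed signal of the 33 was 442 times the 75th percentile on WT and 245, 262 and 477 on replicates 1, 2 and 3, so replicate 3 was not below WT in the sum. Procr, the endothelial protein C receptor used to isolate stem cells, read 3.18 on WT and -0.15, 1.41 and 0.50 in MDS/MPN, a mean difference of -2.59 ± 0.65 (SE; adjusted p = 0.35). Hlf, a transcription factor of stem cells, read 3.99 on WT and 0.57, 2.17 and 1.1, 3.53- to 11-fold lower. Meis1, a cofactor of Hox proteins, read 5.07 on WT and 3.34, 4.03 and 3.33. The groups did not overlap for any of these, and replicate 2 lay closest to WT.

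The MDS arrays lay close to WT at Procr, Hlf and Meis1, but not at every gene of the group. They read 3.25 and 2.97 for Procr, 4.0 and 4.29 for Hlf, and 4.86 and 4.63 for Meis1. Esam, an adhesion molecule of stem and endothelial cells, read 2.60 on WT, 1.78 and 1.39 in MDS, and -0.32, -0.15 and 0.88 in MDS/MPN. Pdzk1ip1 read 5.30 on WT, 5.0 and 5.27 in MDS, and 3.61, 2.09 and 4.05 in MDS/MPN. The undetermined array read -0.35 for Procr, -0.01 for Hlf, 3.15 for Meis1 and -1.34 for Esam, below WT and MDS. Low levels of these genes were thus not particular to MDS/MPN. The difference of MDS/MPN from MDS, tested in the same fit without use of the WT array, was -2.87 ± 0.53 for Hlf (SE; adjusted p = 0.77) and -2.53 ± 0.52 for Procr (SE; adjusted p = 0.87). Sult1a1, a sulfotransferase, read 0.68 on WT, 4.31 and 3.33 in MDS, and -0.83, -3.47 and -1.34 in MDS/MPN, not above background on replicate 2. Clec1a, a C-type lectin receptor, was above background on WT at -1.16 and on none of the 3 MDS/MPN arrays, at least 2.49-fold lower in the mean.

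**Figure D3:**
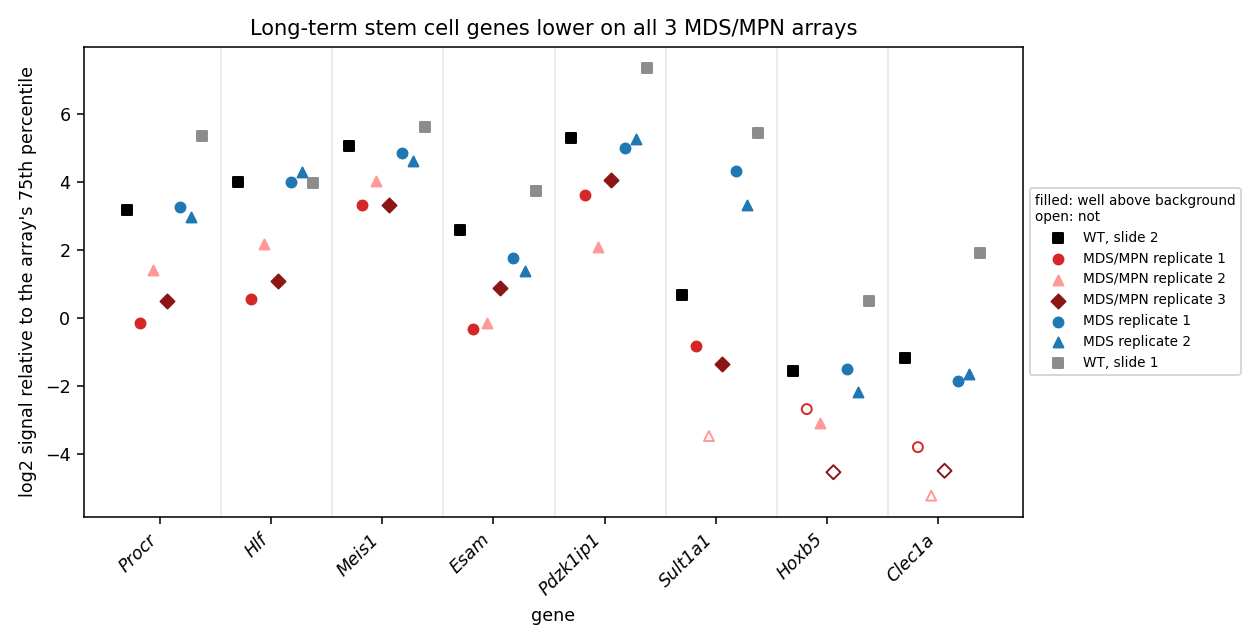
Levels of the 8 long-term stem cell genes lower on all 3 MDS/MPN arrays, on 7 arrays (log2 signal relative to the array's 75th percentile; filled markers well above background, open markers not). The red MDS/MPN markers lie below both WT markers for every gene, and for Procr, Hlf and Meis1 the blue MDS markers lie close to WT.

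Not every stem cell gene was lower. Angpt1, which encodes angiopoietin-1, read 4.48 on WT and 3.05, 3.67 and 2.63, lower on all 3 but by less than 2-fold on replicate 2. Robo4, a guidance receptor of stem cells, read 2.86 on WT and -0.40, 2.99 and 0.64, so replicate 2 did not share the direction. Vwf read 1.85 on WT and 3.43, 1.39 and 3.51, higher on replicates 1 and 3. The median difference of the 30 was -1.1, -0.88 and -0.78 on the 3 arrays. Cyp26b1, which degrades retinoic acid, read -1.14 on WT and 1.13 and -0.35 in MDS, and was not above background on any MDS/MPN array, at least 2.53-fold lower than WT in the mean.

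Hox genes encode homeodomain factors that Polycomb silences and that stem cells express in part. Of the 21 genes of both clusters on the array 11 entered, 3 were at least 2-fold lower by their measured values on all 3 arrays (27.3%, against 4.08% of all features), but none of the 3 was above background on all 4 arrays. Hoxb2 read 0.23 on WT and -1.23, -2.14 and -2.56 in MDS/MPN, not above background on replicate 3. Hoxb3 read -1.66 on WT and -3.82, -2.78 and -4.51, and Hoxb5 read -1.56 and -2.68, -3.09 and -4.53, both above background on replicate 2 alone in MDS/MPN. The lowest signal above background on replicate 1 was -1.51, higher than either WT level, so a 2-fold difference of these 2 genes was not detectable on that array. Hoxa9, a driver of myeloid leukaemia, read 0.05 on WT and -0.81, -0.20 and -1.11, and Hoxa7 was lower on replicates 1 and 3 alone.

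Other genes lower on all 3 arrays and above background throughout included Aldoc, an aldolase of glycolysis, with 3.66 on WT and 0.70, 1.82 and 0.77 in MDS/MPN, 3.59- to 7.77-fold lower. Hacd4, an enzyme of very long fatty acid synthesis, read 1.88 on WT and -0.17, 0.10 and -0.09, and Bdh2, a dehydrogenase of siderophore and ketone metabolism, read 2.30 and -0.03, 0.58 and -0.14. These 3 were lower than both WT arrays. The MDS arrays read 2.25 and 2.25 for Hacd4 and 2.56 and 2.60 for Bdh2, no lower than WT. The undetermined array read -0.81 for Hacd4 and -1.02 for Bdh2, below WT and all 3 MDS/MPN arrays. Slc16a9, a carrier of the monocarboxylate transporter family, read 0.69 on WT, -0.17 and -0.34 in MDS and -3.11, -2.34 and -3.16 in MDS/MPN, where it was above background on replicate 2 alone. For Enox1, Sepsecs, Adgrf3 and H2ac6, in contrast, the other WT array read -1.52 or lower, below at least 1 MDS/MPN array.

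Of the 788 lower features, 430 were above background on WT and on no MDS/MPN array, and 34 of these 430 were also at least 2-fold lower than the WT array of the other slide. Cntn5, a neural contactin, read 1.20 on WT, -5.25 on the other WT array, and between -5.73 and -3.57 in MDS/MPN. Bsnd, Pou3f2, Kcnj15, Sftpd and the retinol acyltransferase gene Lrat had the same pattern, with 0.43 to 1.08 on this WT array and -5.50 to -5.14 on the other. Their signal was seen on the WT array of the MDS/MPN slide and not on the other.

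Against MDS, limma called no feature in either direction (0%), with 362 higher (1.87%) and 524 lower (2.71%) at an unadjusted p below 0.05, and 894 and 741 called without replicate 2. The genes with the lowest p included Il1b, the interleukin-1 beta gene, which was above background on all 3 MDS/MPN arrays at -1.18, -1.85 and -1.03 and on neither MDS array (adjusted p = 0.73), while the other WT array read -1.56. Gpr25, an orphan receptor, read 0.31, 0.66 and 1.26 in MDS/MPN, -1.76 and -1.26 in MDS and -1.99 on WT. Gdf3, a growth factor of the TGF-beta family, read 4.43, 3.78 and 4.36 in MDS/MPN, 1.98 and 1.43 in MDS and 3.50 on WT. Tsc22d3, a glucocorticoid-induced gene, read 4.07, 3.84 and 3.94 in MDS/MPN, 6.34 and 7.01 in MDS, 4.34 on WT and 7.23 on the other WT array, so the WT arrays differed from each other as the disease groups did.

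Several groups of genes split replicate 2 from replicates 1 and 3. Of all features, 1277 were at least 2-fold higher than WT on replicates 1 and 3 (6.61%), of which 361 were so on replicate 2, 867 lay within 2-fold of WT there and 49 lay at least 2-fold lower. Of the 1534 at least 2-fold lower on replicates 1 and 3 (7.94%), 788 were so on replicate 2, 595 lay within 2-fold and 151 lay at least 2-fold higher.

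Red cell genes were 1 such group. All 5 globin genes that entered, of 10 on the array, were at least 2-fold higher on replicates 1 and 3 (100%, against 6.61% of all features). All 5 lay within 2-fold of WT on replicate 2. Hba-a2, an alpha globin gene with a near-identical copy, read 0.63 on WT, 6.43 and 6.40 on replicates 1 and 3, and 1.06 on replicate 2. The MDS arrays read 7.27 and 8.09. Of the 35 other erythroid genes that entered, 18 were at least 2-fold higher on replicates 1 and 3 (51.4%, against 6.61% of all features), of which 3 were so on replicate 2. Gata1, the master regulator of red cell and platelet lineages, read 2.78 on WT, 6.14 and 5.54 on replicates 1 and 3, and 2.13 on replicate 2. Klf1, the erythroid Krüppel-like factor, read -1.16 on WT, 3.10 and 2.06, and -1.62 on replicate 2, and Epor, the erythropoietin receptor, read 0.50, 4.30 and 3.61, and 0.57. MDS arrays read 3.36 and 3.28 for Gata1 and 1.43 and 1.72 for Epor. The 3 members higher on all 3 arrays were Car1, Tfrc and Kel. Car1, a carbonic anhydrase of early erythroid cells, read 0.33 on WT and 6.57, 1.80 and 5.29, and Tfrc, the transferrin receptor, read -0.58 and 2.09, 1.99 and 1.22.

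**Figure D4:**
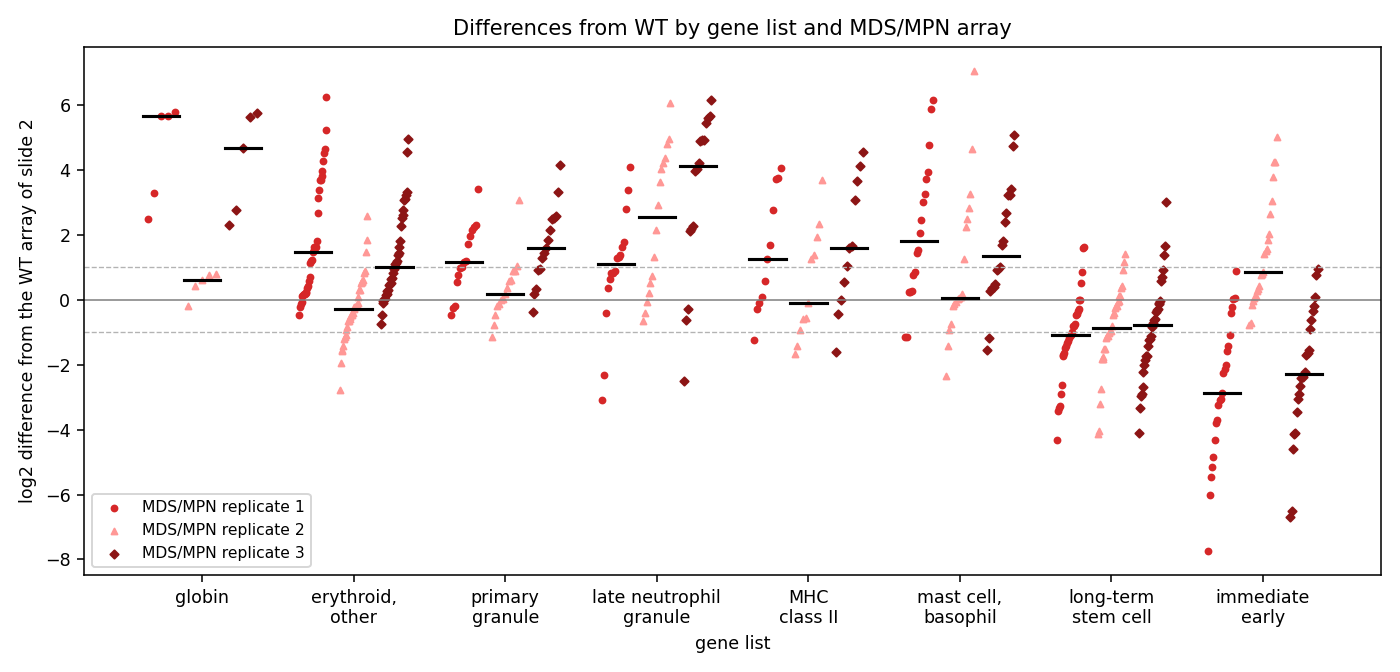
Difference of each MDS/MPN array from the WT array of its slide (log2, y axis) for the members of 8 gene lists that entered the comparison; 1 marker per gene, a bar at the median, dashed lines at 2-fold. Replicates 1 and 3 lie high for globin and erythroid genes and low for immediate early genes, while replicate 2 lies near or across the zero line for these lists.

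Immediate early genes split the other way. These genes respond to stimulation within minutes and include the Fos, Jun, Egr and Nr4a factors. Of the 23 that entered, 16 were at least 2-fold lower on replicates 1 and 3 (69.6%, against 7.94% of all features) and none of the 16 was lower by that much on replicate 2, where 8 were at least 2-fold higher. Fos read 6.75 on WT, -0.98 and 0.25 on replicates 1 and 3, and 6.71 on replicate 2. Nr4a1, an orphan nuclear receptor, read 2.62 on WT, -0.24 and 0.40, and 7.62 on replicate 2. Atf3, a stress-induced factor, was above background on WT at 0.24, on neither replicate 1 nor 3, and read 4.48 on replicate 2. MDS arrays read 3.13 and 2.04 for Fos, between the extremes, and the other WT array read 7.10 for Fos, 9.02 for Nr4a1 and 5.25 for Atf3. The list's median difference was -2.86, 0.85 and -2.29 on replicates 1, 2 and 3.

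Replicate 2 differed in further genes. Xist, the RNA of the inactive X chromosome, was above background on replicate 2 at 2.09 and on no other of the 4 arrays. The Y-linked genes Ddx3y and Eif2s3y read -5.74 and -5.90 on replicate 2, not above background, against 0.47 and 1.83 on WT. The labels give no sex, and the part of sex in the differences of replicate 2 was not tested. Pre-B cell genes were high on this array alone: Vpreb1, a surrogate light chain gene, read 4.79 against 0.24 on WT and -0.35 and -0.10 on replicates 1 and 3, and Blnk, an adaptor of B cell receptor signalling, read 4.11 against 0.30 on WT and 0.69 and -0.25. Mki67, a marker of cycling cells, read 6.29 on replicate 2 and between 2.45 and 2.60 on the others. Ribosomal protein genes lay below WT there, with a median difference of -1.04 over 33 genes, against 0.37 and 0.34 on replicates 1 and 3.

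Several lists held no gene on which the 3 arrays agreed. None of the 25 mitosis genes, 30 DNA replication genes, 32 respiratory chain genes or 33 ribosomal protein genes that entered was at least 2-fold from WT in 1 direction on all 3. The same held for the 19 genes of RAS-MAPK feedback and for the 32 genes mutated in human MDS and MDS/MPN that entered. Over all features the shares were 1.87% higher and 4.08% lower, so a list of this size can hold none without differing from all features. Among p53 targets 3 of 25 were higher (Pmaip1, Fas and Zmat3; 12%, against 1.87% of all features), and 1 of the 3 was above background on all 4 arrays. Zmat3 also exceeded both WT arrays, with -1.98 on WT and -0.03, -0.32 and -0.15 in MDS/MPN. Bmi1, a subunit of Polycomb repressive complex 1 that supports stem cell renewal, read 2.01 on WT and 3.30, 3.39 and 3.08 in MDS/MPN, 3.20 and 3.05 in MDS and 2.43 on the other WT array. Of the interferon response genes 1 of 31 was higher (3.23%, against 1.87% of all features). It was Gbp6, for which the other WT array lay within the MDS/MPN range.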

How the data were processed

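LSK cells of 10 samples had been hybridised to 1-colour Agilent arrays, 0.02 µg of RNA each. The intensity values are the processed signals that the authors deposited in scanner files, background-subtracted by Agilent Feature Extraction per the file headers, which give version 10.7.1.1 where the submitters' processing notes give 9.1, together with a call per spot of well above background. A value table of ratios was also deposited by the authors. Its 2 WT columns match each other's scanner files, as do 2 Ezh2-deleted columns (SD of the log2 ratio at most 0.00126 against at least 0.64 for the next file), so it was used for this check alone.

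Signals were divided by the array's 75th percentile and log2-transformed. Of 55681 probes, 27644 were named by RefSeq accession, giving 20968 genes, and the brightest probe stood for a gene. Features above background on WT or on at least 2 of 3 MDS/MPN arrays were tested (19313). limma 3.58.1 in R 4.3.3 (lmFit, eBayes, two-sided) fitted WT (1 array), MDS (2) and MDS/MPN (3) together, with 3 residual degrees of freedom, and p-values were Benjamini-Hochberg adjusted at 0.05. Scripts were tested on simulated data.

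Named genes were the targeted gene and PRC2, then the genes with the largest agreeing difference, lowest p and list members on which the arrays agreed; a few others were named after their values were seen. The genes and lists were chosen with earlier results of these data known. Alternatives were other scalings, background correction, filters, floors, probe rules, controls and left-out arrays. The number of arrays limits the precision, and p-values measure the spread between these mice with 1 array for WT. A few genes are not reported here.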

Additional observations from a re-analysis of the deposited data

Results flagged for a closer look

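At 4 genes, a signal was seen on arrays that the comparisons did not use. Batf3 read -0.53 and Kel 1.88 on the array of the Ezh2-deleted mouse with no disease determined, above background there, above all 3 MDS/MPN arrays, and above background on neither WT array. Ccr9 read 0.26 and Klrd1 -1.59 on the array of mixed Ezh2-deleted mice, above background there and on neither WT array. All 4 genes were also above background on both MDS arrays, with Ccr9 at 0.21 and 0.03 and Klrd1 at -0.99 and -0.78. The undetermined and mixed arrays are single arrays with no replicate.

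Sult1a1 went in opposite directions in the disease groups. MDS/MPN minus WT was -2.56 by the measured values, at least 2-fold lower on all 3 arrays though not above background on replicate 2, while both MDS arrays were at least 2-fold higher than WT. The fitted difference of MDS/MPN from MDS, which takes that value as measured, was -5.70 ± 0.83 (SE; limma, adjusted p = 0.73), which misses the threshold, and the other WT array read 5.43.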

How the results depend on the processing

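No paired analysis was possible because WT is 1 array. Features called by limma against WT, 0 in either direction, became 8 higher and 188 lower under quantile normalization, 2 lower with the WT array of the other slide, and 0 to 430 higher and 0 to 741 lower when 1 MDS/MPN array was left out, the high end without replicate 2. Against MDS, leaving out 1 array gave 0 to 894 higher and 0 to 741 lower. Features at least 2-fold higher and lower on all 3 arrays, 361 and 788, became 98 and 304 with normexp and quantile normalization, 148 and 123 above background on every array in the fit, 149 and 124 on all 4 (an alternative chosen after seeing the data), 211 and 397 with a floor, 1149 and 1790 with the WT array of the other slide, and 209 and 205 against both. At 4-fold in place of 2-fold, 447 features agreed in either direction (1149 at 2-fold), 340 of them lower. Leaving out 1 MDS/MPN array gave 367 to 1152 higher and 956 to 1534 lower, and fewer arrays then had to agree. The cause of the other changes was not tested. Taking the percentile over detected probes moved the median difference of all features from -0.05 to -0.16.

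With the WT array of the other slide the mean difference changed sign for Ezh2 (0.48), Rbbp4 (0.32), Mt2 (-0.081), Id1 (-3.62), Sepsecs (0.77), H2ac6 (1.16), Adgrf3 (0.52), Nckap1 (-0.43), Cdkn1a (-2.01), Id2 (-0.53), Phlda1 (-0.84), Ccl2 (-0.38), Gbp6 (-0.13) and Sf3b1 (0.18). Rbbp4 read 0.048 with the median probe. A floor gave 0.080 for Necab3, 0.010 for Atf3 and 0.057 for Klf4, normexp gave 0.41 for Atf3, 0.42 for Nr4a1 and 0.28 for Klf4, and quantile normalization gave 0.17 for Nr4a1. Leaving out 1 array gave a range for Ezh2 from -0.37 to 0.18, Suz12 from -0.15 to 0.70, Rbbp4 from -0.26 to 0.36, Fosb from -4.80 to 0.045, Atf3 from -3.62 to 0.39, Nr4a1 from -2.55 to 1.38 and Klf4 from -2.63 to 1.12. The cause was not tested. Probes not above background give bounds, not folds.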
